A study of Mus musculus with 9 samples.

Results

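The genes described here are 9 genes linked to cell survival or cell death: *Cflar*, *Bcl2l1*, *Bcl2*, *Mcl1*, *Bcl10*, *Gadd45b*, *Ier3*, *Tnfaip8* and *Casp4*. Binding of RelA and RelB near them was read from 8 lists of ChIP-seq peaks, by taking every peak whose centre lay within 50 kb of the gene's start site on the mm9 mouse genome. The 9 genes were taken as a named list out of 22380 protein-coding genes, and 69 of the 24630 peaks at 6 h lay near them. The chromatin came from Nfkb2-/- MEFs, mouse embryonic fibroblasts that lack *Nfkb2* in every cell and were immortalised by serial passage, before stimulation (0 h) or after 6 h of chronic treatment with 10 ng/ml TNF (TNFc). All 8 libraries share the *Nfkb2* deletion, and wild-type chromatin was not analysed here. Each antibody, against RelA (p65) or RelB, was used in 2 libraries per time point, and nothing in the labels says whether the libraries of a pair came from separate cultures, so the spread between them may be technical.

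TNF activates NF-κB and can also start programmed cell death through the same receptor. Which outcome prevails depends on genes that NF-κB switches on, whose products hold caspases, mitochondrial permeabilisation or prolonged JNK signalling in check. RelA and RelB are DNA-binding subunits of NF-κB that recognise the κB motif as dimers, and the product of *Nfkb2*, p100, is both the source of the subunit p52 and an inhibitor that holds dimers in the cytoplasm. The listed genes do not share a single role. The first 4 restrain caspase activation or protect mitochondria, while Bcl10 is a signalling adaptor and Casp4 is an inflammatory caspase that promotes a lytic form of cell death.

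The RelA libraries held 182 and 194 peaks at 0 h and 7052 and 5688 at 6 h, and the RelB libraries 35 and 14 at 0 h and 5192 and 6698 at 6 h. Total reads are not in the lists, so the depth is unknown, and the smallest number of ChIP reads in a called peak at 6 h was 10 or 11 in each library. The strength of a peak is the log2 fold of ChIP reads over scaled input reads in its strongest window. A site is a region in which peaks of the 4 libraries at 6 h overlapped by at least 1 bp, and its centre is the mean of the centres of its peaks. No peak in the sense used here means that none passed the authors' threshold in that library, which at unknown depth does not show that the factor was absent.

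At 0 h no library had a peak within 50 kb of any of the 9 start sites, where 1.16% of all protein-coding genes had one, so a count of 0 is near the background. At 6 h, 8 of the 9 genes had a peak in at least 1 library, against 43.5% of all protein-coding genes. The exception was *Bcl2*. A site called in both RelA libraries lay near 5 of the 9 genes, where the share of all protein-coding genes was 14.1%, and a site called in both RelB libraries lay near 6, where that share was 15%. The sixth gene with a reproducible RelB site was *Cflar*. The 5 genes with a site in all 4 libraries were *Mcl1*, *Bcl10*, *Gadd45b*, *Ier3* and *Casp4*, against 9.82% of all protein-coding genes. These counts describe a list of 9 named genes and carry no test.

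**Figure D1:**
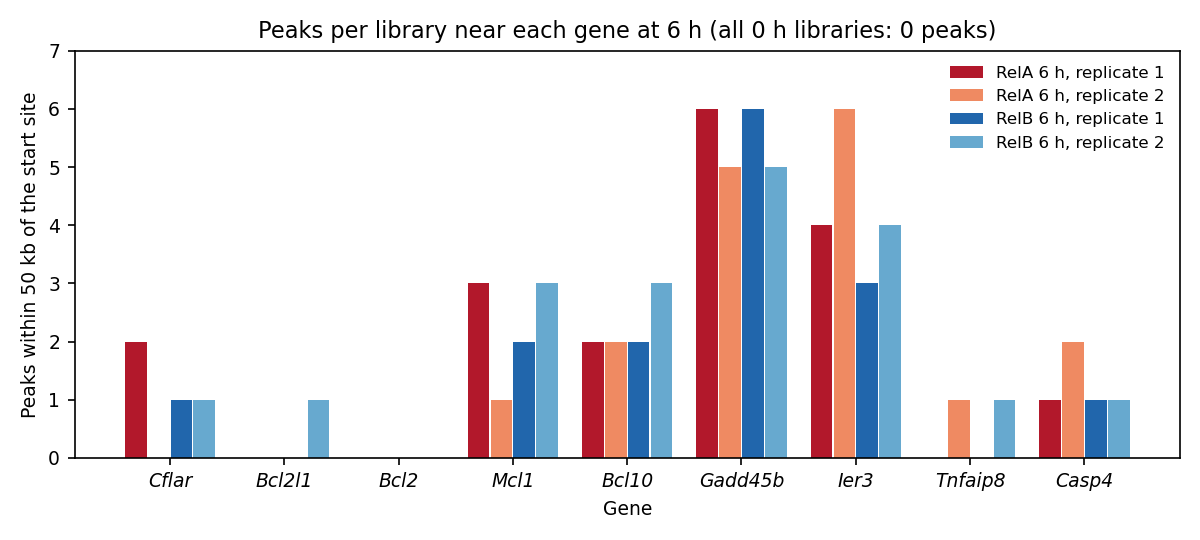
Number of peaks within 50 kb of the start site (y axis) of each gene (x axis) in the 4 libraries at 6 h, 1 bar per library, with no bar where a library had 0 peaks. *Gadd45b* had 5 or 6 peaks in every library and *Ier3* 3 to 6, while *Bcl2* had none.

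The peaks merged to 30 sites. Of these, 9 (30%) were called in all 4 libraries, and 13 (43.3%) in a single library. Over all 14781 sites at 6 h the shares were 12.6% and 67.9%. Among the single-library sites near these genes, 9 belonged to a RelA library and 4 to a RelB library, with 12 to 23 ChIP reads each and log2 folds between 1.67 and 2.68. The sites in all 4 libraries had 14 to 76 ChIP reads per library and log2 folds between 2.35 and 4.45. Their median log2 fold, averaged over the libraries of a site, was 3.46, and that of all 1860 sites shared by the 4 libraries was 3.19. Sites lay both at the start sites and far from them. There were 9 sites within 1 kb of a start site, 4 of them in all 4 libraries, and 15 sites more than 10 kb away, 5 of them in all 4 libraries. For 10 of the 30 sites the start site of another protein-coding gene was nearer than that of the listed gene, so the assignment rests on the 50 kb rule alone.

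**Figure D2:**
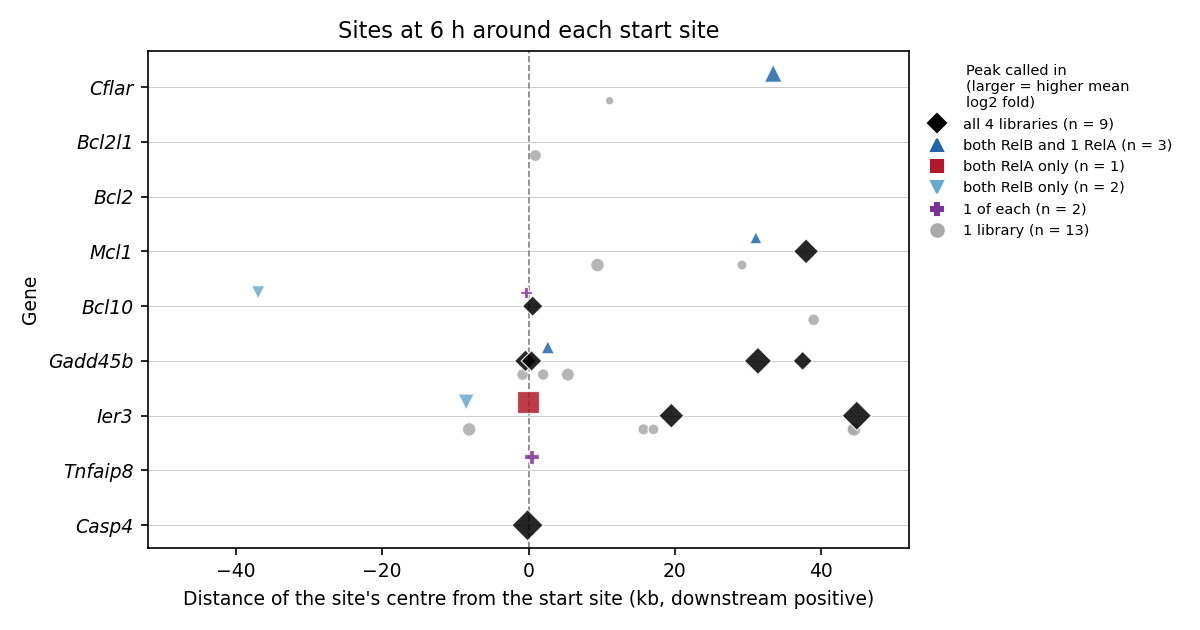
Each of the 30 sites at 6 h by its distance from the gene's start site (x axis, in kb, downstream positive), 1 row per gene, with marker and colour giving the libraries in which a peak was called and marker area rising with the mean log2 fold. Within a row, sites in 1 library are drawn lower, and sites in 2 or 3 libraries higher, than sites in all 4. Sites in all 4 libraries (black) lay at the start sites of *Casp4*, *Gadd45b* and *Bcl10* and from 19504 to 44836 bp downstream of *Mcl1*, *Gadd45b* and *Ier3*.

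The sequences under the sites are shown first, because they place the κB motif relative to the peaks. Both strands were searched for the κB consensus in a window reaching 100 bp to each side of a site's centre. A match was found at 17 of the 30 sites (56.7%), and at 13.3% of windows of the same size that lay 1000 bp to either side. Of the 9 sites in all 4 libraries 7 held a match (77.8%), as did 7 of the 8 sites in 2 or 3 libraries and 3 of the 13 in a single library (23.1%). Over all sites at 6 h the share was 45.5%, with 12.1% in the flanks, and it was 79.9% for sites in all 4 libraries, 64.5% for those in 2 or 3 and 33.7% for those in 1. Inside the merged sites themselves 12 of the 30 held a match, and a stricter consensus searched in the window was held by 13. The motif is nearly the same on both strands, so matches can overlap each other, and sites rather than matches were counted. A match describes these letters in this window and does not show that a factor was bound to them.

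At *Casp4* the 250 bases before the start site are shown (mm9, chr9:5308578-5308827, plus strand, which is the strand of the gene), because they hold the centre of the strongest shared site of the 9 genes, which itself runs past both ends of this stretch. Capitals mark the κB matches.
*Casp4* upstream region: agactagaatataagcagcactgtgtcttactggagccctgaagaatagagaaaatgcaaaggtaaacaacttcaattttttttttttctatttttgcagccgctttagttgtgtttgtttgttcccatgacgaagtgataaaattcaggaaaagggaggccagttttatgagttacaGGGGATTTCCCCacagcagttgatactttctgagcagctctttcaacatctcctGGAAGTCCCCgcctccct
The first capitals hold 3 overlapping matches that begin at 5308756, 5308757 and 5308758. The strongest peak of every library covers them. In a search of the 250 bases before each of the 22380 protein-coding start sites, 24.0% held at least 1 match.

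At *Gadd45b* the shared site upstream of the start site is shown (chr10:80392310-80392486, plus strand, the strand of the gene), and at *Ier3* the site that both RelA libraries and neither RelB library called, extended by 4 bases so that its match is whole (chr17:35958431-35958575, plus strand, the strand of the gene). Capitals again mark the κB match, which at *Ier3* lies past the end of the RelA replicate 1 peak at 35958496.
*Gadd45b* upstream site: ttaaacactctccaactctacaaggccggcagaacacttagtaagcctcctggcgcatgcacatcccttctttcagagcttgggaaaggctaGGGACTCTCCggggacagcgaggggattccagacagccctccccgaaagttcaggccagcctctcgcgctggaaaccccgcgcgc
*Ier3* upstream site: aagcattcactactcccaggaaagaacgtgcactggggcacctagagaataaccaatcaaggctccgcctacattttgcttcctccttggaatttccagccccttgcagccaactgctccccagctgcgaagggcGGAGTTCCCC

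Matches at other reproducible sites are given with 10 bases on either side, all on the plus strand of mm9 with the match in capitals, to show how the motif varied between sites.
*Cflar*, intron, match at 58801722 to 58801731: gcttgtgtgaGGGACTTTCCtctcctttgc
*Mcl1*, downstream site, match at 95500605 to 95500614: gtcagaaataGGAGAGTCCCagcctgctgt
*Bcl10*, intron, match at 145587898 to 145587907: cgcacgccctGGAATTCCCCgagtaatcag
*Gadd45b*, coding exon, match at 80393329 to 80393338: ggcgtgggtgGGGGCGCCCCtctgatgcac
*Gadd45b*, farthest site, match at 80430222 to 80430231: atcactcctgGGGGAATCCCcatctttgag
*Ier3*, farthest site, match at 36003492 to 36003501: tccccaaggaGGGTATTTCCcctgacccgc
The matches at *Cflar*, *Mcl1* and *Bcl10* all differ from each other, and the *Mcl1* match lies 9 bases past the end of the called peaks though within 100 bp of the site's centre. A shared site downstream of *Gadd45b* and a shared site downstream of *Ier3*, described with those genes, held no match in the window.

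*Cflar* encodes cFLIP, which blocks the activation of the initiator caspase at death receptors. The gene spans chr1:58768352-58815728 on the plus strand, and 2 sites lay within 50 kb of its start site. The stronger, chr1:58801598-58801996, lay in an intron 33425 bp downstream of the start site. It was called in RelA replicate 1 at a log2 fold of 2.99 with 22 ChIP reads, and in RelB replicates 1 and 2 at 3.94 and 3.57 with 37 and 35 reads. RelA replicate 2 had no peak there, nor any other peak within 50 kb, so *Cflar* met the criterion of a reproducible site for RelB and missed it for RelA. It held the κB match shown above. The other site, 11069 bp downstream, was called in RelA replicate 1 with 12 reads.

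The 3 anti-apoptotic members of the BCL-2 family, which keep the mitochondrial outer membrane intact, differed in their binding. *Bcl2l1*, which encodes BCL-XL, spans chr2:152593052-152657464 on the minus strand. It had 1 site, chr2:152656416-152656658, in its UTR 927 bp downstream of the start site, called in RelB replicate 2 alone at a log2 fold of 2.35 with 13 ChIP reads.
*Bcl2* spans chr1:108434755-108610851 on the minus strand, and its start site had no peak of any library within 50 kb. The nearest peak at 6 h was 70656 bp away, inside the gene, which is 176097 bp long. That site, chr1:108539904-108540449, in an intron, was called in RelA replicate 1 at a log2 fold of 3.07 with 18 reads and in the RelB libraries at 4.07 and 3.92 with 56 and 41 reads. Like the *Cflar* intron, it had a peak in both RelB libraries and in 1 RelA library. It was 1 of 4 sites within *Bcl2* beyond the 50 kb limit, and it was described after its values were seen.
*Mcl1*, whose protein product turns over rapidly, spans chr3:95462643-95467099 on the plus strand, and had 4 sites, all downstream of the gene. The site in all 4 libraries, chr3:95500516-95500596, was intergenic and lay 37914 bp from the *Mcl1* start site and 8718 bp from that of *Adamtsl4*. RelA reached log2 folds of 3.31 and 3.36 there with 29 and 22 ChIP reads, and RelB 3.48 and 3.72 with 43 and 39 reads. The difference of RelA minus RelB, after each library was centred on its median over all shared sites, was -0.18 (SE 0.27, 95% interval -0.77 to 0.41, limma, adjusted p = 0.772). The other 3 sites were called in 1 to 3 libraries. The strongest of them by mean fold was intergenic, 9407 bp from the *Mcl1* start site, and was called in RelA replicate 1 with a log2 fold of 2.68 and 16 reads. No library had a peak closer to the *Mcl1* start site than this one. A weaker site, 31052 bp from the *Mcl1* start site and 1855 bp from that of *Adamtsl4*, was called in both RelB libraries and in RelA replicate 1.

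*Bcl10*, an adaptor with a caspase recruitment domain that links antigen receptors to NF-κB, spans chr3:145587322-145597247 on the plus strand. It had 4 sites. The site in all 4 libraries, chr3:145587604-145588143, was centred 559 bp into the gene, in an intron. RelA had log2 folds of 2.39 and 2.83 with 16 and 27 reads, and RelB 3.10 and 3.06 with 27 and 37 reads. The centred difference of -0.39 (SE 0.28, 95% interval -1.01 to 0.24) did not pass the test (limma, adjusted p = 0.524). An intron of *Ddah1*, 36945 bp upstream, held chr3:145550245-145550503, which had a peak in both RelB libraries at 2.68 and 2.56, from 12 and 13 reads, and none in a RelA library. These reads were close to the lowest in any called peak. The strongest of the remaining sites by mean fold, 38946 bp downstream and 24566 bp from the start site of *Syde2*, was called in RelA replicate 2 at 2.28 with 17 reads. The other, 348 bp upstream of the *Bcl10* start site, was weaker but was called in RelA replicate 1 and RelB replicate 2.

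*Gadd45b*, a stress-inducible gene whose product restrains JNK signalling, had the largest number of peaks of the 9 genes, 6 and 5 for RelA and the same numbers for RelB. It spans chr10:80392836-80394949 on the plus strand. The peaks merged to 8 sites, a number that 0.420% of protein-coding genes reached, and 4 of them were called in all 4 libraries, which held for 12 genes (0.0536%).
A pair of these shared sites lay at the start site. The upstream one, chr10:80392310-80392486, was intergenic and centred 433 bp before the start. RelA had log2 folds of 2.90 and 3.04 there with 24 and 52 reads, and RelB 2.88 and 3.29 with 21 and 34 reads. The ranges overlapped, and the centred difference was -0.03 (95% interval -0.64 to 0.58, limma, adjusted p = 0.968). The other, chr10:80392702-80393584, covered the start site and was centred 404 bp downstream in a coding exon. RelA gave 2.57 and 3.09 on the log2 scale from 44 and 28 reads, and RelB gave 3.01 and 2.78 from 54 and 45 reads. Here too the ranges overlapped, at a centred difference of 0.02 (95% interval -0.63 to 0.67, limma, adjusted p = 0.982).
The other pair lay in an intron of the neighbouring gene *Gng7*, though nearer to the *Gadd45b* start site than to any other protein-coding one. The site chr10:80424031-80424354, 31333 bp downstream, was the strongest of the 8. RelA gave 3.30 and 3.73 on the log2 scale from 36 and 55 reads, and RelB gave 3.91 and 4.14 from 45 and 65 reads. The centred difference of -0.43 was the largest in size among the 9 shared sites (SE 0.28, 95% interval -1.05 to 0.20, limma, adjusted p = 0.481). This site held no κB match, either in the window or in its whole length. The site chr10:80429951-80430585, 37444 bp downstream, had folds of 2.36 and 2.98 in the RelA lists (33 and 43 reads), and of 2.88 and 2.35 in the RelB lists (27 and 14 reads). The difference there was 0.13 (95% interval -0.58 to 0.85, limma, adjusted p = 0.864).
The other 4 sites were called in 1 to 3 libraries. The strongest by mean fold, chr10:80395170-80395551, lay 2620 bp downstream of the start site and past the gene's end. It was called in RelA replicate 1 at 2.57 with 11 reads, and in the RelB libraries at 2.38 and 2.78 with 19 and 14 reads. The protein-coding genes whose peak numbers in the 8 libraries were most like those of *Gadd45b* were *Mtap7d1* and *Trappc3*, each with 6 and 4 RelA peaks and 5 and 5 RelB peaks at 6 h, and *Csf1*, with 7 and 5 RelA peaks and 7 and 6 RelB peaks. The Euclidean distance of log2(peaks + 1) over the 8 libraries was 0.344 for the first 2 and 0.352 for *Csf1*.

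*Ier3*, an immediate early gene induced by stress and growth factors, had 9 sites, a number reached by 0.241% of protein-coding genes. It spans chr17:35958629-35959868 on the plus strand in a gene-dense region, with the start sites of 5 other protein-coding genes within 50 kb, and 6 of its 9 sites were nearer to one of those.
The site at its own start was called for RelA and not for RelB. It spans chr17:35958431-35958571, centred 141 bp upstream of the start site, and RelA reached log2 folds of 4.09 and 4.32 there from 22 and 33 ChIP reads. No RelB library had a peak there. Both RelA values equal log2 of the ChIP reads in the strongest window plus 1, for windows of 16 and 19 reads, the value of a window with no input reads, although 3 and 6 input reads lay elsewhere in the peaks. A window without input has the highest fold that its ChIP reads allow. RelB libraries had no value at this site, so the difference in strength could not be tested. Of the 30 sites this 1 had peaks in both RelA libraries and no RelB peak, a pattern of 2.65% of all 14781 sites, and 2 had peaks in both RelB libraries and no RelA peak, against 3.9%. Both counts are too small to set apart from these shares.
A site with the opposite pattern, chr17:35949824-35950359, lay 8524 bp upstream of *Ier3* and was intergenic. Both RelB libraries called it, at 3.29 and 2.98 with 21 and 19 reads, and neither RelA library did. No κB match lay in its window. RelA replicate 2 had a separate peak of 23 reads 8120 bp upstream, chr17:35950494-35950523, that did not overlap it. The lack of RelA at this site therefore rests on the overlap rule, as chaining centres within 500 bp would join that peak to it.
Both sites in all 4 libraries lay downstream. The intergenic site chr17:35978011-35978390, 19504 bp from the *Ier3* start site, lay 327 bp from that of *Mdc1*. RelA gave 3.21 and 3.36 on the log2 scale from 19 and 15 reads, and RelB gave 3.70 and 3.58 from 18 and 16 reads. The centred difference was -0.27 (SE 0.27, 95% interval -0.87 to 0.32, limma, adjusted p = 0.641). The site chr17:36003344-36003558 was the strongest of the shared sites near *Ier3*. It lay 44836 bp downstream, in an intron of *2310014H01Rik* and 928 bp from that gene's start site. RelA had log2 folds of 3.86 and 4.01 with 61 and 53 reads, and RelB 4.18 and 4.21 with 36 and 39 reads. The difference was -0.18 (95% interval -0.76 to 0.41, limma, adjusted p = 0.780). These reads are sums over whole peaks. The fullest window held 21 and 25 ChIP reads for RelA, and 25 and 27 for RelB. Of the rest, the strongest was a single-library site, 44457 bp downstream in a UTR of *2310014H01Rik*, called in RelB replicate 2 at 2.67 with 12 reads.

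**Figure D3:**
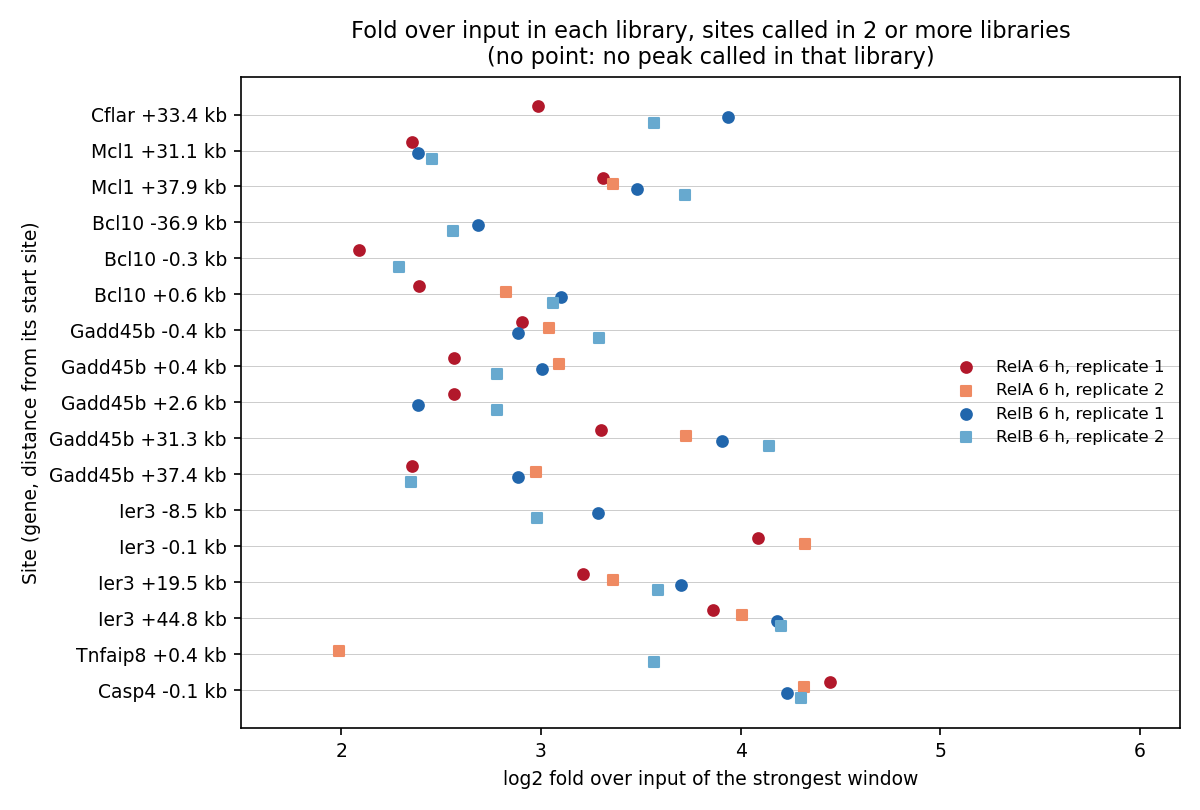
Log2 fold over input (x axis) in the strongest window of each library at 6 h for the 17 sites called in more than 1 library (y axis, named by gene and distance from its start site). Circles are replicate 1 and squares replicate 2, in red for RelA and blue for RelB, and a missing point means that no peak was called. *Casp4* and the farthest *Ier3* site had the highest values shared by both factors, and the *Ier3* start site had RelA points and no RelB points.

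*Tnfaip8*, a TNF-inducible gene reported to protect from apoptosis, spans chr18:50139081-50266827 on the plus strand. Its 1 site within 50 kb, chr18:50139199-50139710, was centred 404 bp downstream of the start site in an intron. It was called in RelA replicate 2 at a log2 fold of 1.99 with 18 reads and in RelB replicate 2 at 3.57 with 56 reads. Neither replicate 1 library had a peak there. The window held a κB match. A further 4 sites lay within the gene beyond the 50 kb limit, at log2 folds between 1.74 and 3.18. The site 86823 bp downstream was called in both RelB libraries, at 1.74 and 2.08, and in RelA replicate 2 at 2.01.

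*Casp4*, the inflammatory caspase that senses lipopolysaccharide inside the cell, had the strongest shared site of the 9 genes. It spans chr9:5308828-5336783 on the plus strand. The site chr9:5308214-5309350 was centred 142 bp upstream of the start site and covered it. At the strongest peak, RelA reached log2 folds of 4.45 and 4.32, and RelB 4.24 and 4.30. ChIP reads over the site were 75 and 76 for RelA and 58 and 63 for RelB. The centred difference was 0.19 (SE 0.26, 95% interval -0.39 to 0.78, limma, adjusted p = 0.751). Its mean fold stood at percentile 95.5 of the 1860 shared sites. The width came from RelA. The RelB peaks spanned 52 and 78 bp, the RelA replicate 1 peak 1016 bp, and RelA replicate 2 had a narrow peak of 77 bp at 5308713 to 5308789 with 63 reads and a second, weaker one of 13 reads at 5308214 to 5308429. The same site lay within 50 kb of the start sites of *Casp1* (10169 bp) and *Casp12* (36790 bp), so it cannot be assigned to *Casp4* by distance limit alone, though *Casp4* was the nearest.

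The 9 shared sites together did not separate the factors. The centred differences of RelA minus RelB ran from -0.43 to 0.19 with a median of -0.18, and over all 1860 shared sites the median was -0.01. Without centring, these medians were -0.26 and -0.09. The test called 0 of the 9 sites at an adjusted p under 0.05 (limma, with 0 of the 9 and 16.8% of all shared sites at an unadjusted p under 0.05), and it called 0.591% of the 1860 sites, 8 higher for RelA and 3 higher for RelB. That split depended on the setting. It was 5 higher for RelA and 3 for RelB without centring, and 7 and 3 under quantile normalization. When the replicate number was a block it was 41 and 44, and at an FDR under 0.01 it was 16 and 14. Among the intervals at the 9 sites the lowest limit was -1.05 and the highest 0.85, at different sites. Differences within each site's own interval remain possible, and the missed threshold does not show equal binding.

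**Figure D4:**
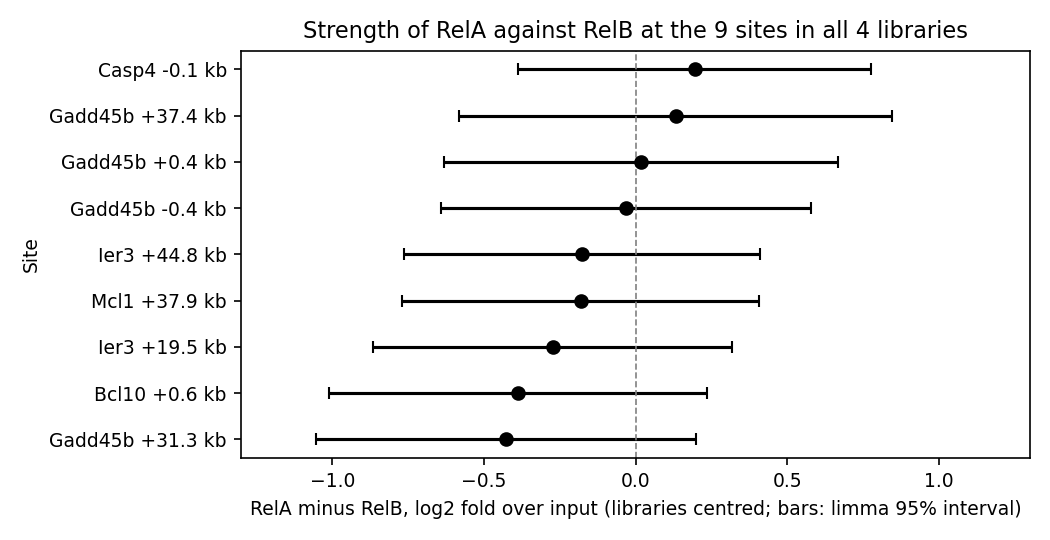
RelA minus RelB in log2 fold over input (x axis) at the 9 sites near these genes called in all 4 libraries (y axis), each library centred on its median over the 1860 shared sites. Points are limma estimates from 2 libraries per factor and bars their 95% intervals, all of which include 0.

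Other genes of cell death gave a setting for these counts, from lists read by the same 50 kb rule. Of 8 anti-apoptotic BCL-2 genes, 3 had a peak and 1, *Mcl1*, had a site in all 4 libraries. All 3 effectors, *Bax*, *Bak1* and *Bok*, which permeabilise mitochondria, had a peak, and 0 had a shared site. Of 8 BH3-only genes, whose products promote death by binding the other family members, 7 had a peak and 3 a shared site. The strongest was at *Bbc3*, which encodes PUMA, 3207 bp downstream of the start site, where RelA had log2 folds of 3.94 and 3.88, and RelB 4.27 and 4.14. At the shared site of *Bid*, 10995 bp upstream, RelA had 3.15 and 3.68, and RelB 3.10 and 3.22. At the stronger shared site of *Bik*, 38845 bp downstream, RelA had 2.66 and 2.62, and RelB 3.01 and 2.78. Shared sites lay near genes that promote death as well as near genes that prevent it.
In the list of caspase genes, *Casp1*, *Casp4* and *Casp12* had a shared site within 50 kb, and it was the single site described above for each of them. The next list held 10 genes downstream of death receptors, CARD proteins or mitochondrial release, adaptors together with *Cycs* and *Diablo*. Of these, 8 had a peak and 1, *Tradd*, the adaptor of the TNF receptor, had a shared site. It lay 24740 bp upstream of the *Tradd* start site, and RelA had 2.36 and 3.04 there, and RelB 2.50 and 2.90. Of 7 paralogs of the genes studied, 5 had a peak and 3 a shared site. At the *Gadd45a* site, 3624 bp upstream, RelA had log2 folds of 3.31 and 3.27, and RelB 2.38 and 2.65. At the *Ier2* site, 2730 bp downstream, RelA had 2.57 and 3.53, and RelB 3.65 and 3.86. At the *Ier5* site, 9093 bp upstream, RelA had 2.57 and 3.27, and RelB 3.87 and 3.79. None of the 3 passed the test, at centred differences of 0.86 (limma, adjusted p = 0.160), -0.62 (adjusted p = 0.396) and -0.83 (adjusted p = 0.217). All of these shares are to be read against 43.5% of protein-coding genes with any peak and 9.82% with a shared site.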

How the data were processed

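ChIP-seq peak lists of 8 libraries from Nfkb2-/- MEFs were analysed, and the input list was not used. The authors trimmed the reads with cutadapt, aligned them to mm9 with Bowtie and called peaks per library against pooled input with cisGenome 2.0. The deposited columns hold the log2 fold over scaled input, the FDR (a q-value between 0 and 1) and counts of ChIP and input reads. All 25055 peaks met the stated limits (FDR under 0.1, fold above 2). The depth is unknown.

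Start sites came from the GENCODE annotation of mm9, and the longer of the 2 entries named *Tnfaip8* was used. Peaks of the 4 libraries at 6 h that overlapped by 1 bp or more were merged. Sites in all 4 were tested with limma 3.58.1 on folds centred per library (Benjamini-Hochberg adjustment over all 1860 sites), a step tested on simulated data, as was the κB search. The 9 genes, the gene lists and the tests were chosen with earlier results of these data known. Sites in all 4 libraries, and those in both libraries of 1 factor and neither of the other, are all described. Of the rest, at most the strongest per gene is given in full. Alternatives covered the distance, the FDR, merging, equal peak numbers, transcript starts, normalization, the replicate block, the motif window and leaving out each library. Counting the gene body was added after seeing the data. No sequence from chromosome 18 is printed. The counts of the caspase list are not reported here. Python 3.11.15 (numpy 2.4.6, pandas 2.3.3, matplotlib 3.10.9) and R 4.3.3 were used.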

Additional observations from a re-analysis of the deposited data

How the results depend on the processing

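Counts of sites moved with the distance and the threshold. The 30 sites became 19 within 20 kb, 48 within 100 kb and 19 at an FDR under 0.01, and the 9 shared sites became 5 within 20 kb, where 11 sites in place of 17 held a κB match. The share of protein-coding genes with a shared site was 4.51% within 20 kb and 17.7% within 100 kb. Between 4 and 6 of the 9 genes had a shared site under every alternative run. *Mcl1* dropped out at 20 kb, *Bcl2l1* entered at 100 kb through a site 99953 bp away and nearest to *Foxs1*, and *Cflar* entered when RelA replicate 2 was left out. The number of sites called between RelA and RelB over the whole genome was 11, 30 at an FDR under 0.01, 0 with centres chained within 500 bp, and between 0 and 31 with 1 library left out (the lone library was taken to vary like the others). Without RelA replicate 1 or RelB replicate 2 it was 0, and without RelA replicate 2 it was 31 (16 higher for RelA, 15 for RelB). With the replicate block it was 85, but same-numbered libraries did not deviate together (r = -0.003 over 1860 sites), so the number pairs nothing known. In 79 alternative fits of the 9 shared sites none passed the test, and the lowest adjusted p was 0.393. Not every site had every fit. The farthest *Gadd45b* site had none at an FDR under 0.01. Without RelA replicate 1 the wide *Casp4* site fell into separate parts. *Casp4* still had a site in every library left, but the fit of that narrower site is not among the 79. The difference changed sign at 3 *Gadd45b* sites. The upstream site went from -0.03 to 0.0014 under quantile normalization and from -0.23 to 0.094 with 1 library left out. The start site went from 0.02 to -0.065 without centring and from -0.24 to 0.34 with 1 library left out, and the farthest site from -0.22 to 0.50. The cause of these shifts was not tested. At the other shared sites the difference kept its sign in every fit made. The median difference over the shared sites near these genes ran from -0.26 to -0.03 under the alternatives.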
